A study of Drosophila melanogaster with 8 samples.

Results

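Fly embryos in which 4 transcription factors of early neural stem cells were produced throughout the body were compared, gene by gene, with embryos that carried the driver alone. The first group, called Quad, held da-Gal4 together with UAS transgenes for ase, SoxN, wor and Kr (2 libraries). Its control, called Ctrl, held da-Gal4 over the wild-type strain OregonR (2 libraries). These 4 of the 8 libraries of the series were chosen by their labels as the experiment on the Quad transgenes. The other 4 belong to a second experiment, in which the same driver was combined with UAS-ase-Vp16, UAS-SoxN-EnR, UAS-wor-EnR and UAS-Kr (QuadD, 2 libraries) or was again alone over OregonR (Ctrl-D, 2 libraries). They are used for comparisons with the second experiment and in an alternative fit of all 8 libraries. Each library came from 50 mg of frozen whole embryos of stages 8 to 16 and all groups share da-Gal4, which is active in nearly all embryonic cells. OregonR is named for both controls and not for Quad or QuadD, so strain background and transgenes cannot be told apart. The question behind the study was what controls division in neural lineages as development goes on.

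Neuroblasts, the neural stem cells of the fly, leave the neuroectoderm, divide asymmetrically and bud off smaller daughters that yield neurons and glia. The proneural-type factor Ase and the Snail family zinc finger protein Wor are made in most neuroblasts, SoxN is a Sox factor of the early neuroectoderm, and Kr is a gap gene product that returns in young neuroblasts as a temporal identity factor. The rest of the ectoderm forms epidermis, which in the later part of the collected window builds denticles and cuticle under ecdysone signalling. A whole-embryo library therefore sums tissues that divide, differentiate and secrete at different times, and fewer cells of a type cannot be told apart from less RNA per cell.

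Levels are the deposited RPKM, which scales reads by the length of the transcript and the size of the library. For each gene the value of replicate 1 stands before that of replicate 2. A gene was tested when at least 2 of the 4 libraries reached 1 RPKM, and it is said to have passed, risen or fallen when limma's moderated test on log2(RPKM + 1), with Benjamini-Hochberg adjustment over all 10436 tested genes, gave an adjusted p under 0.05. Fold changes are Quad over Ctrl on that log2 scale, with their standard error (SE), and they understate the change of genes with low levels. The deposited raw counts, which hold only part of the reads, summed to between 5660187 and 6171860 per library, and between 9834 and 10249 genes reached 1 RPKM. Marker transcripts of ovary and adult male (Vm26Aa, Cp36, Yp1, Acp26Aa and Mst87F) were at or below 0.311 RPKM in all 4 libraries. The labels call the replicates biological and say no more about their source, so p-values measure the spread between 2 libraries per group.

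Nearly as many genes fell as rose, but the falls were larger. Of the 10436 genes tested, 4956 passed (47.5%), of which 2601 were higher in Quad (24.9%) and 2355 lower (22.6%). The shares 24.9% and 22.6% are the background for every count of list members below. Quad and Ctrl libraries did not overlap for 8048 tested genes (77.1%), 4334 higher and 3714 lower, so lack of overlap sets no gene apart. At a change of at least 2-fold, 664 genes were higher (6.36%) and 1276 lower (12.2%), and at 8-fold or more the counts were 18 and 161. The median over all tested genes was 0.05, or -0.03 under RLE scaling and 0.11 under quantile normalization. Among genes that averaged under 5 RPKM, 12.2% were higher and 26.6% lower, whereas at 100 RPKM or more 33.8% were higher and 21.3% lower. Without Ctrl 1 or Ctrl 2, 2714 and 2444 genes passed, and with no filter on low values 2696 did. Without Ctrl 2, 834 genes were at least 2-fold lower. In every one of the 4 fits that left out a library, 2118 of the genes passed, 1079 higher and 1039 lower.

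**Figure D1:**
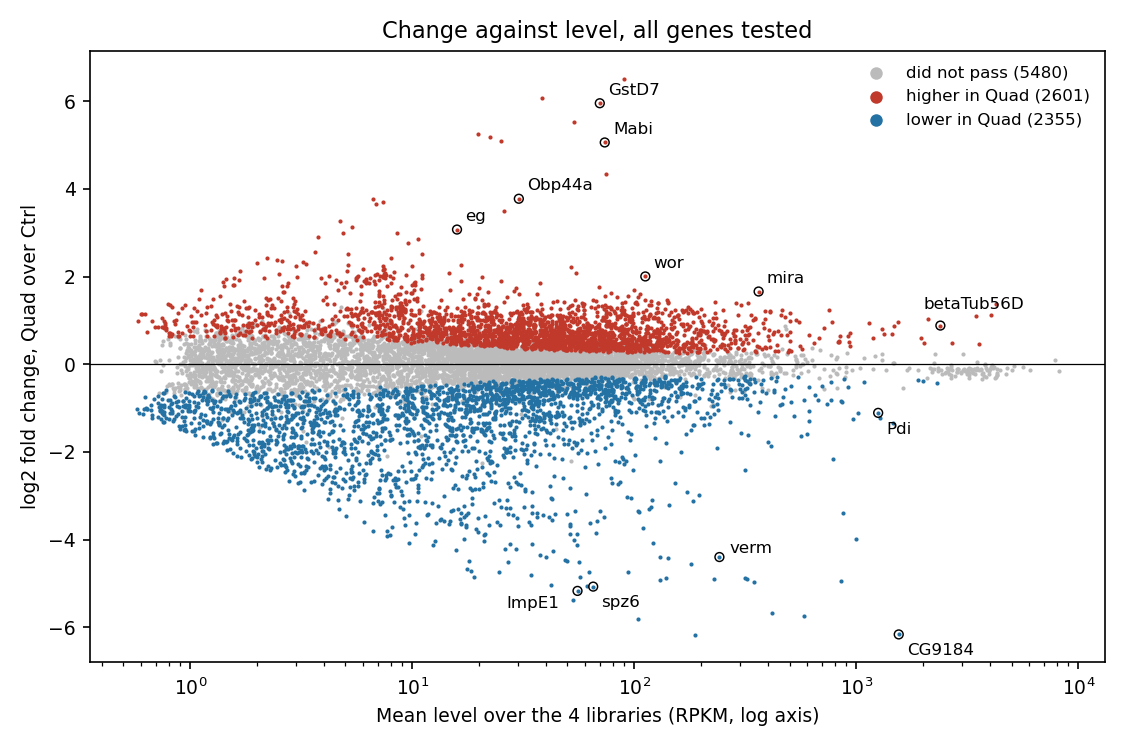
Change in Quad over Ctrl (log2 scale, vertical axis) against the mean level over the 4 libraries (RPKM, log axis), 1 point per tested gene. The 2601 genes that passed higher are red and the 2355 that passed lower are blue, with 5480 that did not pass in grey. The lower side reaches beyond -6, at CG9184, and most red points at high level lie below 2.

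Of the 4 misexpressed genes, 3 passed higher in Quad and SoxN did not pass. For ase the libraries read 109 and 107 RPKM in Quad, against 34.1 and 28.3 RPKM in Ctrl (log2 fold change 1.77 ± 0.12 SE, adjusted p = 0.000257). The gene wor had 172 and 188 RPKM in Quad, against 46.3 and 42 RPKM in Ctrl (log2 fold change 2.00 ± 0.10 SE, adjusted p = 9.67e-05), and Kr had 96.1 and 109 RPKM in Quad, against 46.1 and 35.2 RPKM in Ctrl (log2 fold change 1.33 ± 0.15 SE, adjusted p = 0.00123). The groups did not overlap for any of these 3 genes, which were higher in Quad, and 77.1% of all tested genes had no overlap. SoxN had 97.8 and 121 RPKM in Quad, against 85.6 and 84 RPKM in Ctrl (log2 fold change 0.35 ± 0.12 SE, adjusted p = 0.0536), so the groups did not overlap and the threshold was missed. Gene totals do not separate a transgene's RNA from that of the embryo's own gene, so these values do not check the labels on their own. The gene da, whose promoter drives Gal4, was at 0.23 ± 0.10 (adjusted p = 0.0961). SoxN passed with a minimum of 5 RPKM (0.35), in the fit of all 8 libraries (0.35), with the replicate block (0.35) and without Quad 1 (0.50). da passed without Quad 1 (0.30).

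Relatives of the misexpressed factors moved in both directions, 9 of 21 tested members rising and 6 falling, counts that include ase, wor and Kr. Without the misexpressed genes, 6 of 17 rose and 6 fell. Among the Snail family, sna, the mesoderm repressor that also acts in neuroblasts, had 165 and 181 RPKM in Quad, against 85.1 and 80.7 RPKM in Ctrl (log2 fold change 1.05 ± 0.09 SE, adjusted p = 0.00061), and scrt, a zinc finger gene of neurons, had 81.3 and 68.6 RPKM in Quad, against 40.8 and 34.3 RPKM in Ctrl (log2 fold change 0.98 ± 0.14 SE, adjusted p = 0.00251). The proneural gene l(1)sc of the achaete-scute complex had 73.7 and 96.2 RPKM in Quad, against 34.8 and 28.7 RPKM in Ctrl (log2 fold change 1.39 ± 0.16 SE, adjusted p = 0.00137), while its neighbours ac and sc, at 0.48 ± 0.27 (adjusted p = 0.191) and 0.31 ± 0.18 (adjusted p = 0.201), did not pass. Of the Sox genes, Sox102F rose by 1.30 and Sox21a by 1.19 (adjusted p = 0.00183 and 0.00194). D, a Sox gene that acts beside SoxN in the neuroectoderm, had 143 and 181 RPKM in Quad, against 106 and 111 RPKM in Ctrl (log2 fold change 0.56 ± 0.13 SE, adjusted p = 0.0136). Sox15, a Sox gene of another group, had 0.251 and 0.221 RPKM in Quad, against 3.47 and 2.54 RPKM in Ctrl (log2 fold change -1.69 ± 0.22 SE, adjusted p = 0.00176). The number of falling relatives was 1 without Ctrl 1 and 2 without Ctrl 2. With no filter on low values, scrt (adjusted p = 0.0548), l(1)sc (adjusted p = 0.051) and D (adjusted p = 0.119) did not pass. ac passed without Quad 1 (0.88). D did not pass without Ctrl 1 (0.53). Sox15 was not tested without Ctrl 1 and without Ctrl 2.

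Genes of the neuroblast lineage were mostly higher. Leaving aside the misexpressed ase, wor and SoxN, which the list also holds, 14 of 21 tested members rose and 1 fell (median 0.56, all genes 0.05), the fall being lost without Ctrl 1 and without Ctrl 2. The scaffold gene mira, which carries fate determinants into the daughter cell, had 541 and 562 RPKM in Quad, against 175 and 173 RPKM in Ctrl (log2 fold change 1.66 ± 0.08 SE, adjusted p = 9.5e-05). The gene pon, whose product anchors the Notch inhibitor Numb, had 164 and 169.8 RPKM in Quad, against 67.7 and 62 RPKM in Ctrl (log2 fold change 1.35 ± 0.09 SE, adjusted p = 0.000264). The cargo gene pros, whose protein stops daughter cells from dividing again, had 134 and 120.2 RPKM in Quad, against 50.3 and 45.7 RPKM in Ctrl (log2 fold change 1.39 ± 0.11 SE, adjusted p = 0.000385). For all 3 genes no Quad library overlapped a Ctrl library, as for 77.1% of all tested genes. The spindle orientation genes insc, mud and Galphai rose by 1.25, 1.13 and 0.72 (adjusted p = 0.000497, 0.00139 and 0.00184). The neuroblast Hes factor dpn rose by 1.25 (adjusted p = 0.000547) and the forkhead gene jumu by 1.45 (adjusted p = 0.000425). The list's polarity genes l(2)gl, aPKC, par-6 and baz, which epithelia also use, did not pass, at 0.16 ± 0.09, 0.15 ± 0.10, 0.07 ± 0.10 and -0.02 ± 0.10 (adjusted p = 0.196, 0.241, 0.574 and 0.885).

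The temporal series, the set of factors that successive neuroblast divisions express in turn, was mostly higher, and its last factor was lower. Besides the misexpressed Kr, which belongs to the series, 6 of 10 tested members rose, among them the first factor hb with 91.3 and 100.4 RPKM in Quad, against 36.7 and 31.3 RPKM in Ctrl (log2 fold change 1.47 ± 0.12 SE, adjusted p = 0.000453). The POU genes pdm2 and nub, next in the series, rose by 0.92 and 0.92 (adjusted p = 0.00139 and 0.00139), and cas, which follows them, rose by 0.94 (adjusted p = 0.00639). The related nuclear protein genes dan and danr, known from neuroblast competence, rose by 1.18 and 1.10 (adjusted p = 0.00412 and 0.00118). The last factor, grh, had 38.8 and 38 RPKM in Quad, against 85.5 and 82.2 RPKM in Ctrl (log2 fold change -1.11 ± 0.10 SE, adjusted p = 0.000559) and was the 1 member that fell. It is also a main activator of epidermal barrier genes. svp, an orphan receptor that ends the hb step, was at 0.33 ± 0.12 (adjusted p = 0.0572). Tested over all genes without a filter, cas (adjusted p = 0.104) and dan (adjusted p = 0.0849) did not pass. svp passed in the fit of all 8 libraries (0.33) and without Quad 2 (0.39).

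**Figure D2:**
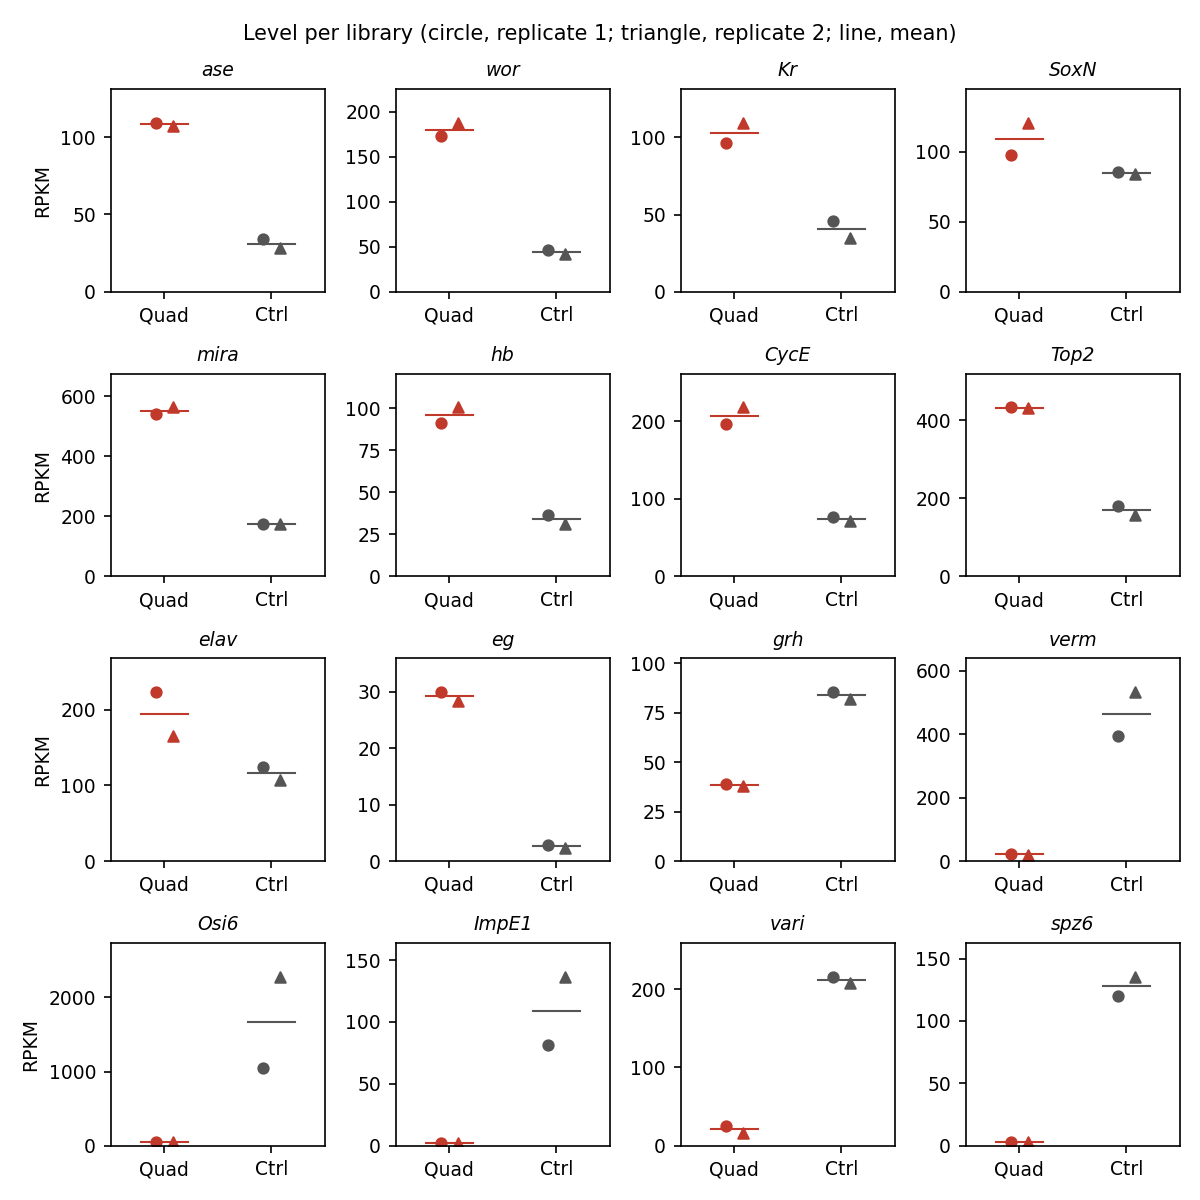
Deposited RPKM of 16 genes in each library, Quad left and Ctrl right, with a line at the mean of each group of 2. Circles are replicate 1 and triangles replicate 2, and every vertical axis starts at 0. For each gene shown, no Quad library overlaps a Ctrl library, as for 77.1% of all tested genes. Wide gaps between replicates are seen in Ctrl for Osi6 and ImpE1, and in Quad for elav.

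Regulators of the cell cycle were mostly higher. Of 12 tested G1 to S regulators 9 were higher and 0 lower, and of 16 G2 to M regulators 13 were higher and 0 lower (medians 0.57 and 1.09). Cdk2, the partner kinase of cyclin E, had 116 and 138 RPKM in Quad, against 64.4 and 58.8 RPKM in Ctrl (log2 fold change 1.03 ± 0.12 SE, adjusted p = 0.00121), and Rbf2, a pocket protein that restrains E2F, had 38.5 and 46.2 RPKM in Quad, against 18.4 and 18.3 RPKM in Ctrl (log2 fold change 1.16 ± 0.14 SE, adjusted p = 0.00139). The mitotic cyclin genes CycA and CycB rose by 1.16 and 1.18 (adjusted p = 0.000453 and 0.000372), their kinase Cdk1 by 1.17 (adjusted p = 0.000936) and polo, a kinase of mitotic entry and exit, by 1.11 (adjusted p = 0.000927). Brakes rose beside activators, the Cdk inhibitor gene rux by 0.72 (adjusted p = 0.00423) and the inhibitory kinase gene Wee1 by 0.84 (adjusted p = 0.0027). The phosphatase genes that remove the inhibitory phosphates split. The gene twe, mainly known from meiosis and from maternal supply, had 21.1 and 13.6 RPKM in Quad, against 1.38 and 1.96 RPKM in Ctrl (log2 fold change 2.76 ± 0.26 SE, adjusted p = 0.000688), while stg, which times embryonic mitoses, had 207 and 224 RPKM in Quad, against 250.2 and 226 RPKM in Ctrl (log2 fold change -0.14 ± 0.10 SE, adjusted p = 0.276). Growth-linked CycD and Cdk4 did not pass (0.27 ± 0.13 and -0.05 ± 0.13, adjusted p = 0.129 and 0.766).

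Genes of the replication and division machinery rose as well. Of 37 tested DNA replication genes 37 rose (range 0.67 to 1.35), and so did 42 of 45 genes of mitosis and cytokinesis and 24 of 28 genes of DNA repair and checkpoints, and 0 genes fell in these lists. With no filter on low values, 22, 34 and 11 genes of the 3 lists rose. Summed over the replication list, levels were 4522 and 5490.3 RPKM in Quad, against 2279 and 2235 RPKM in Ctrl. Orc1, a subunit of the origin recognition complex, had 81.3 and 86.9 RPKM in Quad, against 33.9 and 32.3 RPKM in Ctrl (log2 fold change 1.32 ± 0.10 SE, adjusted p = 0.000389), and dup, the Cdt1 licensing factor, had 232 and 271 RPKM in Quad, against 105 and 103 RPKM in Ctrl (log2 fold change 1.26 ± 0.10 SE, adjusted p = 0.000463). RnrL, which makes deoxynucleotides, rose by 1.06 (adjusted p = 0.000752). In mitosis, pim, the fly securin, had 105 and 117 RPKM in Quad, against 38.8 and 35 RPKM in Ctrl (log2 fold change 1.56 ± 0.11 SE, adjusted p = 0.000289), and the condensin gene glu, the kinesin ncd, the anillin scra and the cytokinesis pair tum and pav rose by 1.35, 1.39, 1.26, 1.26 and 1.20 (adjusted p = 0.00043, 0.000396, 0.000446, 0.000453 and 0.000596). Among checkpoint and repair genes, grp, the fly Chk1 kinase, rose by 1.08 and the mismatch repair gene Msh6 by 1.33 (adjusted p = 0.000933 and 0.00101), while p53 was at 0.09 ± 0.14 (adjusted p = 0.638). In the kinesin family the mitotic motors Klp61F and Klp67A rose (1.25 and 1.16, adjusted p = 0.000605 and 0.000699), and the transport motor Khc was at -0.06 ± 0.12 (adjusted p = 0.721). The number of repair genes that rose was 15 without Ctrl 1 and 11 without Ctrl 2.

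Replication-dependent histone genes, whose RNAs are made in S phase, rose in 109 of 111 tested copies and fell in 0 (median 1.36). With no filter on low values, 40 copies rose. The copies of 1 class are near-identical and how their reads were assigned is not given, so class sums are safer than single copies. The 23 His1 copies summed to 259 and 305 RPKM in Quad, against 51.3 and 54.4 RPKM in Ctrl. For His4 the sums were 272 and 382 RPKM in Quad, against 83.1 and 80.3 RPKM in Ctrl. His2A reached 154 and 264 RPKM in Quad, against 75.4 and 78.1 RPKM in Ctrl, His2B 259 and 342 RPKM in Quad, against 112 and 102 RPKM in Ctrl, and His3 71.5 and 109 RPKM in Quad, against 27.6 and 36.6 RPKM in Ctrl. The median log2 fold change over copies was 2.01 for the linker histone His1 and 1.07 for His3. In each class Quad 2 was above Quad 1, and both were above both Ctrl libraries. BigH1, the linker histone of the egg and early embryo, which is replaced when zygotic transcription starts, had 23.8 and 15.3 RPKM in Quad, against 2.21 and 2.79 RPKM in Ctrl (log2 fold change 2.53 ± 0.25 SE, adjusted p = 0.000827). The variant gene His2Av had 2628 and 3000.4 RPKM in Quad, against 1374 and 1366 RPKM in Ctrl (log2 fold change 1.04 ± 0.11 SE, adjusted p = 0.0011).

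Genes of earlier stages moved in the same direction as these groups. Genes supplied by the mother or active in the germ line were higher in 14 and lower in 2 of 30 tested members (median 0.44), and genes of the blastoderm, first expressed before the stages labelled, in 7 and 1 of 13 (median 0.86). Of all genes, 24.9% were higher and 22.6% lower. Of the falls, 1 and 0 were left without Ctrl 1, and likewise without Ctrl 2. The pair-rule gene ftz had 20.3 and 25.9 RPKM in Quad, against 6.16 and 6.55 RPKM in Ctrl (log2 fold change 1.70 ± 0.18 SE, adjusted p = 0.000989). The piRNA gene AGO3 had 17.4 and 13.8 RPKM in Quad, against 2.80 and 3.33 RPKM in Ctrl (log2 fold change 2.03 ± 0.20 SE, adjusted p = 0.000826), and the maternal morphogen gene bcd had 7.92 and 5.83 RPKM in Quad, against 0.931 and 1.45 RPKM in Ctrl (log2 fold change 1.85 ± 0.24 SE, adjusted p = 0.00183). The zygotic activator zld, maternal and later neural, rose by 0.93 (adjusted p = 0.000827). Both Quad libraries stood above both Ctrl libraries for these 4 genes, and 77.1% of all tested genes had no overlap. The dynein adaptor egl changed by -1.91 (adjusted p = 0.000274), and the posterior gene nos was at 0.39 ± 0.21 (adjusted p = 0.17). Whether the collections differed in their make-up of stages was not tested.

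Many genes of general nuclear machinery rose. Of these lists, 25 of 25 tested nucleoporin and transport genes were higher (median 0.73), as were 24 of 26 spliceosome genes (median 0.60), 20 of 34 Polycomb and trithorax group genes (median 0.48) and 24 of 34 proteasome subunits (median 0.42), against 24.9% of all genes. None of these lists had a member that fell. With no filter on low values, the rises came to 8 for nucleoporins and 12 for the spliceosome. They came to 8 for the Polycomb and trithorax groups and 10 for the proteasome. Nup358, a large pore protein, had 96.1 and 95.1 RPKM in Quad, against 52.1 and 42.9 RPKM in Ctrl (log2 fold change 1.00 ± 0.12 SE, adjusted p = 0.00143), and the splicing core gene SmD1 had 122 and 148 RPKM in Quad, against 59.8 and 63.9 RPKM in Ctrl (log2 fold change 1.11 ± 0.12 SE, adjusted p = 0.00107). Caf1-55, a histone chaperone and Polycomb complex subunit, had 250.1 and 284 RPKM in Quad, against 113 and 119 RPKM in Ctrl (log2 fold change 1.19 ± 0.10 SE, adjusted p = 0.000475), while the remodelling genes Iswi and brm rose by 0.95 and 0.75 (adjusted p = 0.00114 and 0.00154) and the Polycomb group gene Sfmbt by 1.06 (adjusted p = 0.00106). Promoter and insulator factors were higher in 9 of 11 cases, among them Dref, a regulator of replication genes, by 0.96 and BEAF-32 by 0.86 (adjusted p = 0.000684 and 0.00106). The dosage compensation genes mof and msl-2 rose by 0.80 and 0.73 (adjusted p = 0.00339 and 0.00499). Of their list of sex and dosage genes 11 of 13 rose, or 2 with no filter on low values. The number that rose was 10 without Ctrl 2 for the Polycomb and trithorax groups, for the proteasome 15 under RLE scaling, 8 without Ctrl 1 and 14 without Ctrl 2, and for sex and dosage genes 7 without Quad 2, 5 without Ctrl 1 and 5 without Ctrl 2.

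Few genes of protein synthesis rose, and in the ribosomal protein families few fell. Of 90 tested cytoplasmic ribosomal protein genes 4 fell and 0 rose (median -0.14), shares below the 22.6% and 24.9% of all genes. Nucleolar and growth genes were lower in 8 and higher in 1 of 25. Myc, the main growth regulator of fly cells, had 25 and 21.8 RPKM in Quad, against 43.3 and 36.1 RPKM in Ctrl (log2 fold change -0.73 ± 0.15 SE, adjusted p = 0.00824). RpI1, the largest subunit of RNA polymerase I, changed by -0.61 (adjusted p = 0.0101). Mitochondrial ribosomal proteins fell in 9 of 73 cases and rose in 0, also below the shares of all genes. The count of falling ribosomal protein genes was 10 under quantile normalization, 17 with the replicate block, 1 without Quad 1, 1 without Ctrl 1 and 0 without Ctrl 2, and that of nucleolar genes 13 without Quad 2, 1 without Ctrl 1 and 5 without Ctrl 2. The 1 nucleolar rise was lost without Ctrl 1 and without Ctrl 2. Mitochondrial ones that fell numbered 15 without Quad 2, 5 without Ctrl 1 and 2 without Ctrl 2, and 4 rose without Quad 1. Without the filter on low values, Myc (adjusted p = 0.0736) and RpI1 (adjusted p = 0.0703) did not pass. Myc did not pass without Ctrl 1 (-0.61). RpI1 did not pass without Ctrl 1 (-0.51).

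Among the genes with large absolute gains in RPKM were those of chromatin and cytoskeleton proteins. HmgD, an abundant chromosomal protein of early embryos, had 5850.4 and 6392 RPKM in Quad, against 2360.4 and 2382 RPKM in Ctrl (log2 fold change 1.37 ± 0.12 SE, adjusted p = 0.000564), and Df31, a chromatin decondensation factor, had 5278 and 5796 RPKM in Quad, against 2567 and 2509 RPKM in Ctrl (log2 fold change 1.12 ± 0.12 SE, adjusted p = 0.00102). Bacc had 4521 and 4908 RPKM in Quad, against 2256 and 2159.5 RPKM in Ctrl (log2 fold change 1.09 ± 0.12 SE, adjusted p = 0.00101), and smt3, the SUMO gene, had 1891 and 2208 RPKM in Quad, against 1044 and 1049 RPKM in Ctrl (log2 fold change 0.96 ± 0.11 SE, adjusted p = 0.00139). The general tubulin gene betaTub56D had 2707 and 3510.2 RPKM in Quad, against 1625 and 1720.3 RPKM in Ctrl (log2 fold change 0.88 ± 0.15 SE, adjusted p = 0.00491). Each of these was higher in both Quad libraries, and 77.1% of all tested genes had no overlap. Genes of the cytoskeleton list rose in 11 and fell in 3 of 22 cases, and the tubulins of particular tissues were among those that fell. The alpha tubulin alphaTub85E, known from muscle, chordotonal organs and testis, had 7.21 and 5.53 RPKM in Quad, against 43.9 and 50.7 RPKM in Ctrl (log2 fold change -2.72 ± 0.18 SE, adjusted p = 0.000217). The mesodermal betaTub60D changed by -1.07 (adjusted p = 0.000841). The number of cytoskeleton genes that rose was 6 under RLE scaling, 4 without Ctrl 1 and 5 without Ctrl 2. When genes of every level were tested, betaTub56D (adjusted p = 0.0857) did not pass.

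**Figure D3:**
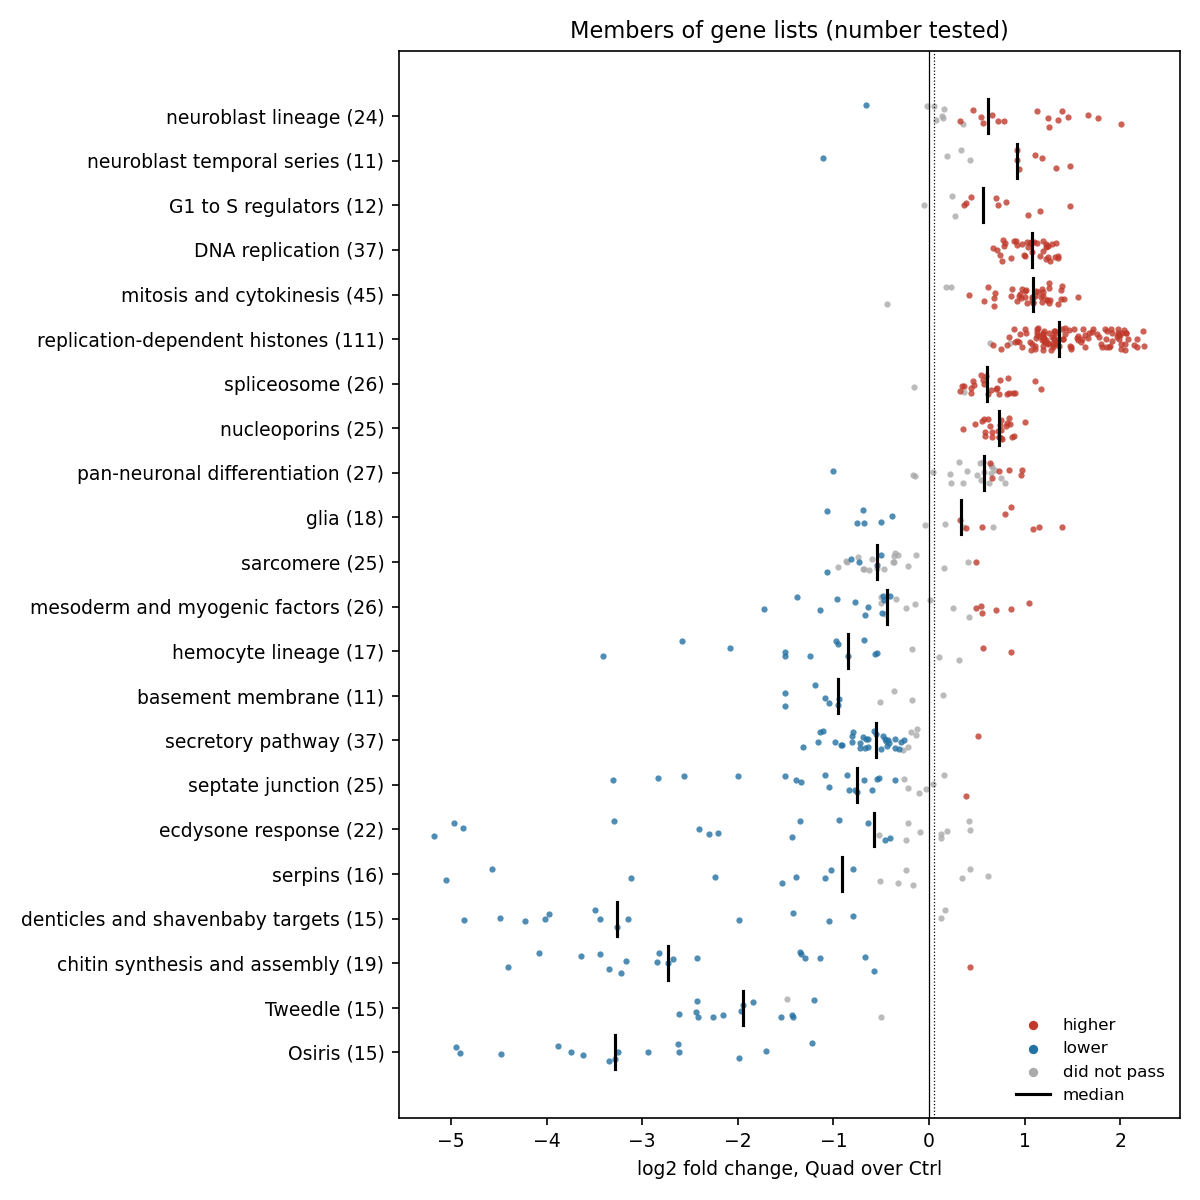
log2 fold change of Quad over Ctrl for the tested members of 22 gene lists, 1 point per gene, with the number tested beside each name. Red points passed higher, blue points passed lower and grey points did not pass, the black bar is the list's median and the dotted line the median of all genes, 0.05. The medians of replication, mitosis and histone genes lie right of 0, and the medians of denticle, chitin and Osiris genes lie below -2.

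Neuronal genes differed between the Quad libraries. In both neuronal lists given here, the share of members that rose was below the 24.9% of all genes. Of 27 tested genes of general neuronal differentiation, 6 rose and 1 fell (median 0.58), the fall being lost without Ctrl 2. The RNA-binding protein gene elav, present in all neurons, had 224 and 165 RPKM in Quad, against 124 and 107 RPKM in Ctrl (log2 fold change 0.73 ± 0.16 SE, adjusted p = 0.0122), and the synaptic chaperone Csp had 249 and 238 RPKM in Quad, against 126 and 123 RPKM in Ctrl (log2 fold change 0.96 ± 0.08 SE, adjusted p = 0.000557). The vesicle gene nSyb had 60.1 and 32.3 RPKM in Quad, against 24 and 24.6 RPKM in Ctrl (log2 fold change 0.84 ± 0.27 SE, adjusted p = 0.046), and Syt1, the calcium sensor of release, had 45.9 and 19 RPKM in Quad, against 16.2 and 21.9 RPKM in Ctrl (log2 fold change 0.62 ± 0.39 SE, adjusted p = 0.227). For Syt1 Quad 2 lay within the range of Ctrl, and for nSyb it lay just above both Ctrl libraries. The Quad libraries lay apart from each other over the list of general neuronal differentiation. The median difference of replicate 2 minus replicate 1 over its members was -0.82 in Quad and 0.01 in Ctrl, and over transmitter receptors and channels it was -0.69 in Quad and 0.17 in Ctrl. The number of neuronal genes that rose was 11 under quantile normalization and 21 without Quad 2. Of receptors and channels 4 of 23 rose, a number that was 12 under quantile normalization, 13 without Quad 2, 1 without Ctrl 1 and 1 without Ctrl 2. The difference between the Quad libraries in late neuronal genes was not tested, since it sets 1 library against 1. In a fit without a filter, elav (adjusted p = 0.135) and nSyb (adjusted p = 0.262) did not pass. nSyb did not pass with a pseudocount of 5 (0.75), under RLE scaling (0.75), without Ctrl 1 (0.82) and without Ctrl 2 (0.85) and moved to 0.40 without Quad 1 and 1.27 without Quad 2. Syt1 passed without Quad 2 (1.24).

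Genes that give single neuron types their identity went both ways, at shares near those of all genes. The zinc finger gene eg, which specifies serotonin neurons of a ventral lineage, had 29.98 and 28.4 RPKM in Quad, against 2.88 and 2.31 RPKM in Ctrl (log2 fold change 3.07 ± 0.18 SE, adjusted p = 0.000148). The Pax genes of the eye and brain rose, ey with 28.9 and 28.4 RPKM in Quad, against 9.12 and 10.02 RPKM in Ctrl (log2 fold change 1.49 ± 0.14 SE, adjusted p = 0.000731) and toy with 43.1 and 43.9 RPKM in Quad, against 19.98 and 16.8 RPKM in Ctrl (log2 fold change 1.20 ± 0.13 SE, adjusted p = 0.00115). nvy, a corepressor gene of motor neurons, had 42.5 and 36.9 RPKM in Quad, against 20.01 and 19.5 RPKM in Ctrl (log2 fold change 0.97 ± 0.13 SE, adjusted p = 0.0021). In the other direction the homeobox genes otp and B-H2 changed by -1.58 and -1.58 (adjusted p = 0.000449 and 0.00127). The head gene so had 17.7 and 16.9 RPKM in Quad, against 35.3 and 35 RPKM in Ctrl (log2 fold change -0.98 ± 0.12 SE, adjusted p = 0.00165). Over the list, 9 of 37 rose and 8 fell, against 24.9% and 22.6% of all genes, the falls numbering 5 without Ctrl 1. Neuropeptide genes rose in 5 and fell in 0 of 17 cases, a share of rises near that of all genes, and the rises numbered 8 under quantile normalization, 1 without Quad 1, 3 without Quad 2, 3 without Ctrl 1 and 3 without Ctrl 2. A single fall appeared without Quad 1. Mip, a myoinhibiting peptide precursor, had 18.5 and 9.82 RPKM in Quad, against 2.08 and 2.73 RPKM in Ctrl (log2 fold change 2.10 ± 0.31 SE, adjusted p = 0.00293). With low genes kept in, Mip (adjusted p = 0.0742) did not pass, and 0 neuropeptide genes rose.

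Among glial genes, 8 of 18 rose and 6 fell, against 24.9% and 22.6% of all genes. Axon guidance and adhesion genes, given below, rose and fell at lower shares than all genes. The fate switch gcm had 94.5 and 97.4 RPKM in Quad, against 56.2 and 48.8 RPKM in Ctrl (log2 fold change 0.86 ± 0.11 SE, adjusted p = 0.00165) and its target repo, found in nearly all lateral glia, 63.4 and 45.3 RPKM in Quad, against 26 and 23.4 RPKM in Ctrl (log2 fold change 1.09 ± 0.18 SE, adjusted p = 0.00418). The glutamine synthetase gene Gs2 had 49.9 and 58.4 RPKM in Quad, against 107 and 122 RPKM in Ctrl (log2 fold change -1.06 ± 0.12 SE, adjusted p = 0.00123), and the blood-brain barrier genes moody and Nrx-IV went apart, moody rising by 0.79 and Nrx-IV, also a septate junction gene of epithelia, changing by -0.76 (adjusted p = 0.00793 and 0.00786). Numbers that rose were 5 without Ctrl 1 and 4 without Ctrl 2, and that fell 2 without Ctrl 1 and 2 without Ctrl 2. Of axon guidance and adhesion genes 7 of 35 rose and 3 fell, rising numbers being 4 under RLE scaling, 17 without Quad 2 and 3 without Ctrl 2 and falling ones 6 without Quad 1. The neuronal adhesion gene Nrt had 804 and 662 RPKM in Quad, against 375 and 375 RPKM in Ctrl (log2 fold change 0.96 ± 0.12 SE, adjusted p = 0.00142), and Fas3, which marks epithelia and a few axons, had 174 and 145 RPKM in Quad, against 485 and 497 RPKM in Ctrl (log2 fold change -1.62 ± 0.11 SE, adjusted p = 0.000251). With no filter on low values, repo (adjusted p = 0.0776), moody (adjusted p = 0.0903) and Nrx-IV (adjusted p = 0.104) did not pass.

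Sensory organ genes went both ways, the rises at a share near that of all genes. Of all genes, 24.9% rose and 22.6% fell. phyl, which promotes sensory precursor fate, had 85.4 and 101 RPKM in Quad, against 43.6 and 41.9 RPKM in Ctrl (log2 fold change 1.10 ± 0.12 SE, adjusted p = 0.000958), and tap, a bHLH gene of sensory precursors, had 142 and 135 RPKM in Quad, against 58 and 55 RPKM in Ctrl (log2 fold change 1.28 ± 0.09 SE, adjusted p = 0.000301). nompA, which links the dendrite to its cap, had 1.37 and 0.719 RPKM in Quad, against 13.4 and 16.5 RPKM in Ctrl (log2 fold change -2.97 ± 0.24 SE, adjusted p = 0.000434), and the cilium regulator Rfx changed by -0.98 (adjusted p = 0.00686). In all, 4 of 18 tested members rose and 8 fell, the falls numbering 2 without Ctrl 1 and 5 without Ctrl 2. Tested over all genes without a filter, Rfx (adjusted p = 0.0592) did not pass. Rfx did not pass without Ctrl 1 (-0.93).

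Genes of the epidermis were lower, many of them strongly. Genes of denticles and targets of the shavenbaby isoform of ovo fell in 13 of 15 cases (median -3.26), those of chitin synthesis and assembly in 18 of 19 (median -2.73) and those of cuticle tanning in 9 of 13 (median -1.96), against 22.6% of all genes. ovo itself had 10.8 and 12.3 RPKM in Quad, against 34.3 and 31 RPKM in Ctrl (log2 fold change -1.42 ± 0.15 SE, adjusted p = 0.000905). The zona pellucida genes mey, m, nyo and tyn, which shape single parts of the denticle, had far lower levels. For m the libraries read 2.15 and 1.95 RPKM in Quad, against 49 and 63.9 RPKM in Ctrl (log2 fold change -4.22 ± 0.19 SE, adjusted p = 7.72e-05), for mey 3.35 and 2.41 RPKM in Quad, against 103 and 119.6 RPKM in Ctrl (log2 fold change -4.86 ± 0.18 SE, adjusted p = 4.98e-05) and for tyn 23.2 and 20.3 RPKM in Quad, against 208 and 226 RPKM in Ctrl (log2 fold change -3.26 ± 0.11 SE, adjusted p = 3.8e-05). The chitin synthase gene kkv had 4.67 and 3.12 RPKM in Quad, against 39.1 and 46.2 RPKM in Ctrl (log2 fold change -3.17 ± 0.21 SE, adjusted p = 0.000238). serp, a chitin deacetylase of trachea and cuticle, had 14.3 and 11 RPKM in Quad, against 196 and 264 RPKM in Ctrl (log2 fold change -4.07 ± 0.19 SE, adjusted p = 7.91e-05), and the chitin-binding genes obst-A and Gasp changed by -3.63 and -3.22 (adjusted p = 0.00015 and 0.000227). No library of Quad reached the lower Ctrl library for any of these, and 77.1% of all tested genes had no overlap.

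Tanning uses tetrahydrobiopterin and tyrosine-derived catechols. Pu, which makes the first intermediate of the cofactor, had 2.33 and 1.78 RPKM in Quad, against 30.8 and 31.5 RPKM in Ctrl (log2 fold change -3.40 ± 0.18 SE, adjusted p = 0.000114), and Hn, phenylalanine hydroxylase, had 3.85 and 2.38 RPKM in Quad, against 19.6 and 23.3 RPKM in Ctrl (log2 fold change -2.46 ± 0.23 SE, adjusted p = 0.000688). The tyrosine hydroxylase gene ple had 1.47 and 0.804 RPKM in Quad, against 7.91 and 18.5 RPKM in Ctrl (log2 fold change -2.64 ± 0.39 SE, adjusted p = 0.00296). It is used by epidermis and by dopamine neurons. Of the yellow family, yellow-b changed by -1.96 (adjusted p = 0.000801). Among transcription factors of the epidermis, Blimp-1 had 2.25 and 2.06 RPKM in Quad, against 32.7 and 27.5 RPKM in Ctrl (log2 fold change -3.30 ± 0.18 SE, adjusted p = 0.000126) and vri 12.8 and 9.81 RPKM in Quad, against 63.5 and 57.4 RPKM in Ctrl (log2 fold change -2.33 ± 0.16 SE, adjusted p = 0.000264), both with roles in cuticle and tracheal tubes. The list of epidermal factors fell in 10 of 13 cases and rose in 2, the rises numbering 1 under RLE scaling, 1 under quantile normalization, 1 without Quad 2, 0 without Ctrl 1 and 1 without Ctrl 2. Without the filter on low values, ple (adjusted p = 0.081) did not pass.

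The Osiris family and families of cuticle proteins were lower too, and in them the Ctrl libraries differed. Of 15 tested Osiris genes 15 fell (24 in the table), with sums of 118 and 129.9 RPKM in Quad, against 1910.0 and 4341 RPKM in Ctrl. Osi6 had 43.2 and 55.3 RPKM in Quad, against 1044 and 2279.7 RPKM in Ctrl (log2 fold change -4.95 ± 0.34 SE, adjusted p = 0.000264) and Osi7 15.7 and 21.3 RPKM in Quad, against 387 and 865 RPKM in Ctrl (log2 fold change -4.91 ± 0.36 SE, adjusted p = 0.000313). Tweedle genes fell in 13 of 15 cases (25 in the table), with sums of 37.1 and 53 RPKM in Quad, against 121 and 346 RPKM in Ctrl. CPR cuticle proteins fell in 17 and rose in 2 of 33, with 96 in the table. A member near 0 in Quad could enter the test only through the Ctrl libraries, so these counts lean towards falls. The sums hold every member in the table. With no filter on low values, 6 Osiris, 4 Tweedle and 4 CPR genes of those tested fell. The median difference of replicate 2 minus replicate 1 over Osiris genes was -0.08 in Quad and 1.13 in Ctrl, and over Tweedle genes 0.34 in Quad and 0.94 in Ctrl. These families are switched on late in the collected window. Whether the 2 Ctrl collections differed in age was not tested. The number of CPR genes that fell was 7 without Ctrl 2, and the rises came to 1 with any of the 4 libraries left out.

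**Figure D4:**
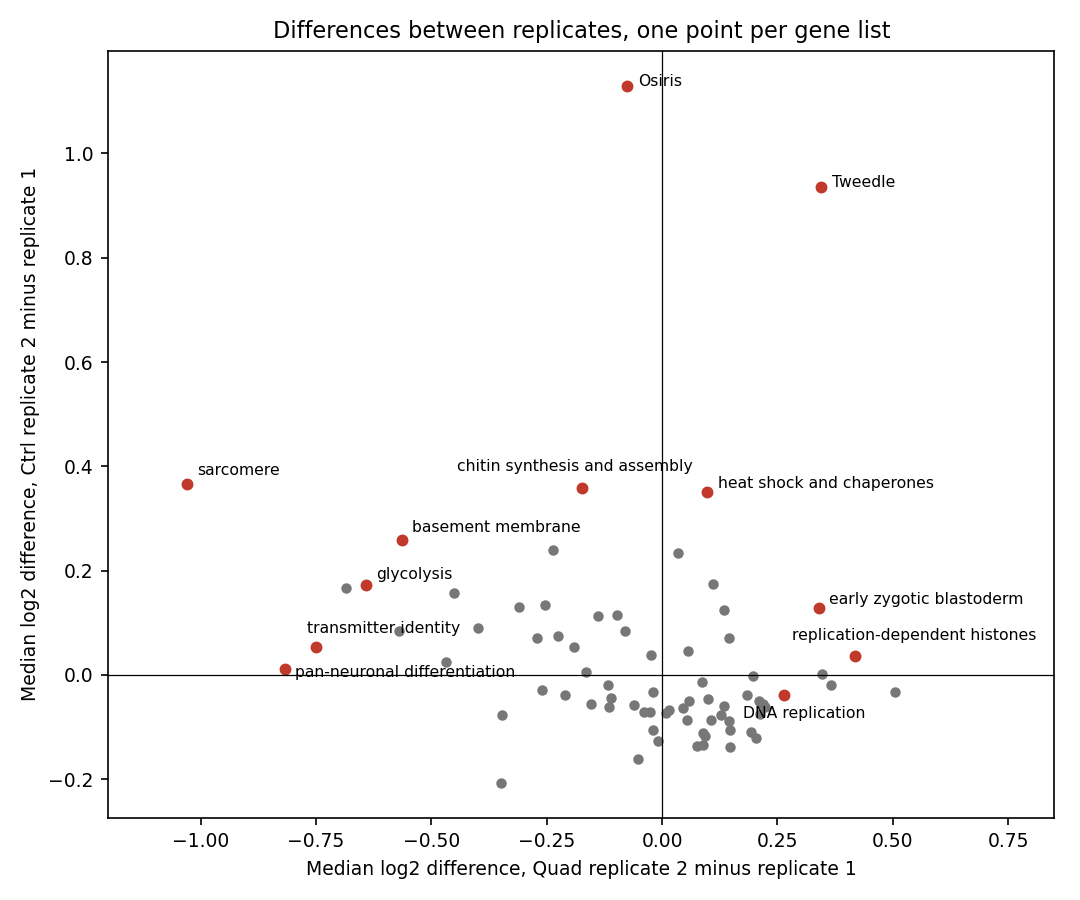
Median log2 difference of replicate 2 minus replicate 1 within Quad (horizontal axis) and within Ctrl (vertical axis), 1 point per gene list with at least 5 tested members. Red points carry their list's name. Sarcomere (-1.03) and general neuronal genes (-0.82) were lower in Quad 2 than in Quad 1, and Osiris (1.13) and Tweedle (0.94) genes were higher in Ctrl 2 than in Ctrl 1.

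Ecdysone response genes were lower in 13 and higher in 0 of 22 tested cases (median -0.58), with 1 rise without Quad 2. Ecdysone is the moulting hormone, and a pulse in mid-embryogenesis precedes cuticle formation. ImpE1 had 2.03 and 1.87 RPKM in Quad, against 81.4 and 137 RPKM in Ctrl (log2 fold change -5.17 ± 0.25 SE, adjusted p = 9.12e-05) and ImpL1 26.3 and 15.7 RPKM in Quad, against 616 and 725 RPKM in Ctrl (log2 fold change -4.97 ± 0.23 SE, adjusted p = 7.91e-05). Nuclear receptors of the cascade were lower as well, Eip78C with 3.83 and 2.46 RPKM in Quad, against 19.2 and 19.2 RPKM in Ctrl (log2 fold change -2.30 ± 0.22 SE, adjusted p = 0.000678) and Hr78 with 21.6 and 18.8 RPKM in Quad, against 63.9 and 51.3 RPKM in Ctrl (log2 fold change -1.46 ± 0.15 SE, adjusted p = 0.000907), while Hr3, Hr4 and Hr39 changed by -2.40, -2.21 and -1.35 (adjusted p = 0.00135, 0.00368 and 0.00298). Of the receptor pair, EcR had 46.1 and 38.3 RPKM in Quad, against 59.1 and 57.1 RPKM in Ctrl (log2 fold change -0.46 ± 0.12 SE, adjusted p = 0.0252) and usp was at 0.12 ± 0.11 (adjusted p = 0.408). Of the enzymes around the hormone, phm, which makes it, rose by 1.15 and Cyp18a1, which breaks it down, changed by -1.72 (adjusted p = 0.014 and 0.00129). Over the list of its synthesis and breakdown, 3 of 10 tested genes rose and 2 fell, near the 24.9% and 22.6% of all genes. When genes of every level were tested, Hr3 (adjusted p = 0.0632), Hr4 (adjusted p = 0.0965), Hr39 (adjusted p = 0.0689), EcR (adjusted p = 0.112) and phm (adjusted p = 0.133) did not pass. EcR did not pass without Ctrl 1 (-0.43) and without Ctrl 2 (-0.48).

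Genes of secretion and of epithelial seals were lower too. Of 37 genes of the secretory pathway 31 fell and 1 rose (median -0.55), with sums of 7231 and 7704 RPKM in Quad, against 11319 and 11536 RPKM in Ctrl. CrebA, which raises secretory capacity in salivary gland, trachea and epidermis, had 45 and 46.3 RPKM in Quad, against 92.7 and 89.5 RPKM in Ctrl (log2 fold change -0.98 ± 0.09 SE, adjusted p = 0.000731). Among the machinery, Pdi, a disulfide isomerase of the endoplasmic reticulum, had 783 and 805 RPKM in Quad, against 1693 and 1735 RPKM in Ctrl (log2 fold change -1.11 ± 0.09 SE, adjusted p = 0.000495), and the translocon genes TRAM, Trp1 and Sec61gamma changed by -1.14, -1.32 and -0.92 (adjusted p = 0.000431, 0.000538 and 0.000869). Septate junction genes, which seal epithelia, fell in 18 and rose in 1 of 25 cases (median -0.76). The scaffold vari had 25.1 and 16.7 RPKM in Quad, against 216 and 208 RPKM in Ctrl (log2 fold change -3.31 ± 0.19 SE, adjusted p = 0.00013), the claudin sinu 72.7 and 69 RPKM in Quad, against 146 and 148 RPKM in Ctrl (log2 fold change -1.05 ± 0.09 SE, adjusted p = 0.000504) and Gli, a gene of tricellular contacts and glia, 35.5 and 30.9 RPKM in Quad, against 91.5 and 79.8 RPKM in Ctrl (log2 fold change -1.34 ± 0.12 SE, adjusted p = 0.000656). The adherens junction genes did not pass, arm at -0.09 ± 0.11 and shg at -0.16 ± 0.09 (adjusted p = 0.533 and 0.204), whereas the apical gene crb changed by -1.73 (adjusted p = 0.000251). The number of secretory genes that fell was 19 without Ctrl 1. The secretory rise was lost without Ctrl 2, and the septate junction rise without Quad 1, without Ctrl 1 and without Ctrl 2.

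Genes of trachea and salivary gland were mostly lower. The tracheal selector trh had 22.3 and 24.5 RPKM in Quad, against 48.9 and 44.4 RPKM in Ctrl (log2 fold change -0.96 ± 0.12 SE, adjusted p = 0.00174), and the tube growth gene uif 26.3 and 26.2 RPKM in Quad, against 104 and 108 RPKM in Ctrl (log2 fold change -1.97 ± 0.10 SE, adjusted p = 9.5e-05). The POU gene vvl, of trachea and neurons, had 50.2 and 44.2 RPKM in Quad, against 138 and 143 RPKM in Ctrl (log2 fold change -1.56 ± 0.10 SE, adjusted p = 0.000241). Of 13 tracheal genes 9 fell and 0 rose. In the salivary gland, PH4alphaSG2, a secretory prolyl hydroxylase, had 3.85 and 3.81 RPKM in Quad, against 49.8 and 51 RPKM in Ctrl (log2 fold change -3.41 ± 0.15 SE, adjusted p = 7.26e-05), and the duct gene eyg 3.39 and 3.99 RPKM in Quad, against 17.9 and 19 RPKM in Ctrl (log2 fold change -2.05 ± 0.18 SE, adjusted p = 0.000531). hkb, a terminal gap gene that also shapes the gland, was the member that rose, with 43.3 and 51.8 RPKM in Quad, against 17.4 and 19.7 RPKM in Ctrl (log2 fold change 1.31 ± 0.14 SE, adjusted p = 0.00107), beside 10 of 13 that fell.

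Mesoderm genes moved in both directions. twi, the first mesoderm factor, had 44.4 and 65.5 RPKM in Quad, against 28.1 and 30.5 RPKM in Ctrl (log2 fold change 0.86 ± 0.19 SE, adjusted p = 0.0126). Mef2, needed for muscle differentiation, had 106 and 121 RPKM in Quad, against 155 and 147 RPKM in Ctrl (log2 fold change -0.41 ± 0.10 SE, adjusted p = 0.0188), and lbl, of heart and a few muscles, 5.02 and 3.82 RPKM in Quad, against 17.2 and 16.5 RPKM in Ctrl (log2 fold change -1.73 ± 0.19 SE, adjusted p = 0.00109). Together 6 of 26 factors rose and 11 fell (all genes 24.9% and 22.6%). The fusion receptor gene sns had 21.3 and 17 RPKM in Quad, against 55.6 and 47.1 RPKM in Ctrl (log2 fold change -1.38 ± 0.16 SE, adjusted p = 0.00121), 1 of 7 falling and 3 rising members of 16. Sarcomere genes fell in 5 of 25 cases and rose in 1 (median -0.54), against 22.6% and 24.9% of all genes. Their sums were 6042 and 3529 RPKM in Quad, against 5660.5 and 7499.5 RPKM in Ctrl. Mhc, the muscle myosin heavy chain, had 179 and 74 RPKM in Quad, against 164 and 227 RPKM in Ctrl (log2 fold change -0.74 ± 0.39 SE, adjusted p = 0.163), so that Quad 1 lay among the Ctrl libraries and Quad 2 below both. The median difference of replicate 2 minus replicate 1 over the list was -1.03 in Quad and 0.37 in Ctrl. The number of rising sarcomere genes was 3 without Quad 2 and 0 without Ctrl 1, of falling ones 18 without Quad 1, 3 without Quad 2 and 1 without Ctrl 2, of falling mesoderm factors 5 without Ctrl 1 and 6 without Ctrl 2 and of rising ones 2 without Ctrl 1 and 3 without Ctrl 2. Fusion genes that rose numbered 1 under RLE scaling, 0 without Ctrl 1 and 0 without Ctrl 2, and those that fell 4 without Ctrl 1. In a fit without a filter, twi (adjusted p = 0.132) and Mef2 (adjusted p = 0.0907) did not pass. Mef2 did not pass without Ctrl 1 (-0.37) and without Ctrl 2 (-0.45). Mhc passed without Quad 1 (-1.37).

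Blood cell, matrix and gut genes were lower for the most part, whereas 22.6% of all genes fell and 24.9% rose. Hemocyte genes fell in 12 and rose in 2 of 17 cases, with 1 rise without Ctrl 1 or without Ctrl 2. The crystal cell prophenoloxidase PPO2 had 21.1 and 22.1 RPKM in Quad, against 129 and 141 RPKM in Ctrl (log2 fold change -2.59 ± 0.10 SE, adjusted p = 6.11e-05), and Pvr, the receptor that guides and keeps hemocytes alive, 25 and 20.6 RPKM in Quad, against 47.6 and 43.3 RPKM in Ctrl (log2 fold change -0.97 ± 0.14 SE, adjusted p = 0.0028). Basement membrane genes fell in 7 of 11 cases and rose in 0. The laminin chain LanB2 had 150.2 and 117 RPKM in Quad, against 298 and 312 RPKM in Ctrl (log2 fold change -1.20 ± 0.13 SE, adjusted p = 0.00109), and the collagen IV genes Col4a1 and vkg changed by -1.50 and -1.51 (adjusted p = 0.00818 and 0.0104). Muscle attachment genes fell in 12 of 18 cases, among them the tendon matrix gene Tsp with 22.6 and 23.1 RPKM in Quad, against 76.9 and 80.3 RPKM in Ctrl (log2 fold change -1.74 ± 0.10 SE, adjusted p = 0.000169). In the gut, the hindgut factor bowl had 39.4 and 49.5 RPKM in Quad, against 153 and 142 RPKM in Ctrl (log2 fold change -1.72 ± 0.13 SE, adjusted p = 0.000363) and the midgut factor GATAe 27.4 and 23.1 RPKM in Quad, against 47.9 and 48.2 RPKM in Ctrl (log2 fold change -0.91 ± 0.13 SE, adjusted p = 0.00258), in a list of 20 with 13 falls. The number that fell was 7 without Ctrl 2 for attachment genes and 6 without Ctrl 1 and 8 without Ctrl 2 for the gut. With low genes kept in, Col4a1 (adjusted p = 0.132) and vkg (adjusted p = 0.143) did not pass.

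Patterning genes showed no common direction, beside 24.9% of all genes that rose and 22.6% that fell. Of gap and terminal genes other than the misexpressed Kr, 4 of 9 rose and 1 fell, the fall being lost without Ctrl 1 and without Ctrl 2. Of pair-rule genes 4 of 10 rose and 2 fell, the rises numbering 2 under RLE scaling, 2 without Quad 2, 2 without Ctrl 1 and 2 without Ctrl 2 and the falls 1 without Quad 1, 4 without Quad 2, 1 without Ctrl 1 and 1 without Ctrl 2. run, a pair-rule gene that returns in the nervous system, had 48.3 and 52 RPKM in Quad, against 26.1 and 24.7 RPKM in Ctrl (log2 fold change 0.95 ± 0.11 SE, adjusted p = 0.00141), and h, a Hes repressor, 19.9 and 20.8 RPKM in Quad, against 49.1 and 48.7 RPKM in Ctrl (log2 fold change -1.23 ± 0.11 SE, adjusted p = 0.00065). Of segment polarity genes 3 rose and 6 fell among 19 (all genes 24.9% and 22.6%), the falls numbering 2 without Ctrl 1 and 3 without Ctrl 2. en, the source of the repressor domain in the second experiment's fusions, was at -0.27 ± 0.15 (adjusted p = 0.191). Along the dorsoventral axis the columnar gene ind of intermediate neuroectoderm had 19.8 and 27.2 RPKM in Quad, against 10.7 and 9.52 RPKM in Ctrl (log2 fold change 1.13 ± 0.19 SE, adjusted p = 0.00511) and Dr, the lateral column gene, 68.1 and 68.7 RPKM in Quad, against 46.3 and 45.3 RPKM in Ctrl (log2 fold change 0.57 ± 0.10 SE, adjusted p = 0.00477), while vnd, the ventral one, was at 0.27 ± 0.15 (adjusted p = 0.172). Of the 17 tested genes of the dorsoventral list, 3 rose and 7 fell, the falls numbering 3 without Ctrl 1 and 4 without Ctrl 2. The Dpp receptor tkv had 114 and 123 RPKM in Quad, against 188 and 183 RPKM in Ctrl (log2 fold change -0.64 ± 0.09 SE, adjusted p = 0.00226), and Dad, an inhibitor that the pathway itself switches on, 14.5 and 14.6 RPKM in Quad, against 32.5 and 32.6 RPKM in Ctrl (log2 fold change -1.11 ± 0.13 SE, adjusted p = 0.00123). Of the Hox genes and their cofactors 3 rose and 1 fell among 12 (all genes 24.9% and 22.6%). Antp had 79.3 and 95.6 RPKM in Quad, against 54.4 and 53.6 RPKM in Ctrl (log2 fold change 0.68 ± 0.12 SE, adjusted p = 0.00537), and abd-A and Abd-B were at -0.19 ± 0.10 and -0.14 ± 0.11 (adjusted p = 0.157 and 0.356). The rising Hox genes numbered 1 under RLE scaling, 1 without Ctrl 1 and 1 without Ctrl 2, and the falling ones 0 under quantile normalization, 2 without Quad 1, 0 without Ctrl 1 and 0 without Ctrl 2. With no filter on low values, ind (adjusted p = 0.0701) and Antp (adjusted p = 0.0642) did not pass. en passed without Quad 2 (-0.48).

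Signalling genes were likewise split within pathways. Of 17 tested genes of the Notch list 7 rose and 3 fell, against 24.9% and 22.6% of all genes. Of the Notch pathway, the corepressor gro had 222 and 229.9 RPKM in Quad, against 119.5 and 119 RPKM in Ctrl (log2 fold change 0.91 ± 0.08 SE, adjusted p = 0.000617) and the ligand Ser 10.8 and 9.55 RPKM in Quad, against 33.1 and 29.8 RPKM in Ctrl (log2 fold change -1.54 ± 0.15 SE, adjusted p = 0.000739), whereas the receptor N was at -0.02 ± 0.13 (adjusted p = 0.901). Of the Enhancer of split and Bearded complexes, which hold Notch target genes, 5 of 16 rose and 3 fell (all genes 24.9% and 22.6%), the rises numbering 8 without Quad 1 and the falls 6 without Quad 2. The repressor E(spl)m8-HLH had 153 and 193 RPKM in Quad, against 83 and 84 RPKM in Ctrl (log2 fold change 1.03 ± 0.13 SE, adjusted p = 0.00158), and Kaz-m1, a protease inhibitor gene of the complex, 33.6 and 27 RPKM in Quad, against 69.4 and 83.5 RPKM in Ctrl (log2 fold change -1.31 ± 0.15 SE, adjusted p = 0.00128). In the EGF receptor pathway the ligand spi had 472 and 507 RPKM in Quad, against 306 and 249.5 RPKM in Ctrl (log2 fold change 0.82 ± 0.12 SE, adjusted p = 0.00286) and the kinase Dsor1, the fly MEK, 44.9 and 50.4 RPKM in Quad, against 20.7 and 19.8 RPKM in Ctrl (log2 fold change 1.19 ± 0.12 SE, adjusted p = 0.000905), while the receptor Egfr had 51.6 and 56.8 RPKM in Quad, against 87.9 and 85.8 RPKM in Ctrl (log2 fold change -0.67 ± 0.10 SE, adjusted p = 0.003). Of this pathway's 19 genes 5 rose and 6 fell, against 24.9% and 22.6% of all genes, the rises numbering 3 without Ctrl 2 and the falls 1 without Ctrl 1 and 2 without Ctrl 2. Inducers of apoptosis differed too. rpr had 120.2 and 109 RPKM in Quad, against 56.2 and 49.1 RPKM in Ctrl (log2 fold change 1.11 ± 0.11 SE, adjusted p = 0.000871) and skl 79.6 and 61.8 RPKM in Quad, against 25.8 and 25.5 RPKM in Ctrl (log2 fold change 1.42 ± 0.14 SE, adjusted p = 0.000875), and hid, another inducer of the same cluster, 19.3 and 22.2 RPKM in Quad, against 33.1 and 31.3 RPKM in Ctrl (log2 fold change -0.61 ± 0.13 SE, adjusted p = 0.0116). The Notch list had 7 rises, which became 4 without Ctrl 1 and 4 without Ctrl 2. Tested over all genes without a filter, spi (adjusted p = 0.0611) and hid (adjusted p = 0.0542) did not pass. hid did not pass without Ctrl 1 (-0.57) and without Ctrl 2 (-0.65).

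Of 10 tested genes of Toll receptors and their Spaetzle ligands, 7 fell and 1 rose (median -0.78), against 22.6% and 24.9% of all genes. The ligand gene spz6 had 3.10 and 2.55 RPKM in Quad, against 119.9 and 136 RPKM in Ctrl (log2 fold change -5.07 ± 0.15 SE, adjusted p = 3.54e-05) and NT1, also called spz2, 2.26 and 1.25 RPKM in Quad, against 34.2 and 41.3 RPKM in Ctrl (log2 fold change -3.83 ± 0.24 SE, adjusted p = 0.000188), and spz4 changed by -2.60 (adjusted p = 0.000913). Of the receptors, Tl had 85.2 and 74.8 RPKM in Quad, against 139 and 137 RPKM in Ctrl (log2 fold change -0.79 ± 0.10 SE, adjusted p = 0.00177) and Toll-6, found in neurons, 98 and 98.5 RPKM in Quad, against 49.8 and 46.3 RPKM in Ctrl (log2 fold change 1.02 ± 0.10 SE, adjusted p = 0.000687). The peptidoglycan receptor gene PGRP-LC had 5.68 and 3.88 RPKM in Quad, against 29.2 and 23.3 RPKM in Ctrl (log2 fold change -2.25 ± 0.22 SE, adjusted p = 0.000798). Over the Toll and immune list 4 of 25 rose and 13 fell, and the rises numbered 2 without Quad 1 and 2 without Quad 2. Serpins, inhibitors of the proteases that activate Spaetzle and the tanning cascade, fell in 9 of 16 cases and rose in 0, with sums of 149.9 and 130.2 RPKM in Quad, against 689 and 734 RPKM in Ctrl. The table holds 27 serpins and 41 members of the Toll and immune list. Members near 0 in Quad could be tested only through the Ctrl libraries, so both counts lean towards falls. With no filter on low values, 7 serpins and 11 Toll and immune genes fell. Spn100A had 3.34 and 2.07 RPKM in Quad, against 114 and 127 RPKM in Ctrl (log2 fold change -5.05 ± 0.20 SE, adjusted p = 5.97e-05) and Spn43Aa 15.8 and 11.8 RPKM in Quad, against 339 and 355 RPKM in Ctrl (log2 fold change -4.57 ± 0.15 SE, adjusted p = 3.54e-05).

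Metabolic and stress genes varied by family, beside 24.9% of all genes that rose and 22.6% that fell. Cytochrome P450 genes rose in 7 and fell in 21 of 40 tested cases (82 in the table). A member near 0 in Quad could enter the test only through the Ctrl libraries, so this count leans towards falls. With no filter on low values, 12 P450 genes fell. Cyp301a1, a cuticle enzyme, had 1.73 and 1.44 RPKM in Quad, against 27.3 and 35.9 RPKM in Ctrl (log2 fold change -3.65 ± 0.21 SE, adjusted p = 0.000136), and Cyp4g1, which makes cuticular hydrocarbons in oenocytes, 0.381 and 0.935 RPKM in Quad, against 15.6 and 19.7 RPKM in Ctrl (log2 fold change -3.50 ± 0.25 SE, adjusted p = 0.000284). Glutathione transferase genes fell in 10 and rose in 3 of 32 cases, the falls numbering 5 without Ctrl 2 and the rises 6 under quantile normalization and 5 without Quad 2. GstE11 was lower, with 7.79 and 6.02 RPKM in Quad, against 53.9 and 60.7 RPKM in Ctrl (log2 fold change -2.89 ± 0.17 SE, adjusted p = 0.000148), and GstD7 was higher, with 170.4 and 107 RPKM in Quad, against 0.982 and 1.42 RPKM in Ctrl (log2 fold change 5.96 ± 0.25 SE, adjusted p = 6.8e-05). Odorant-binding protein genes fell in 7 and rose in 1 of 13 tested cases (51 in the table), a count with the same lean as that of the P450 genes. With no filter on low values 1 fell. Their sums over the table were 853 and 1065 RPKM in Quad, against 2464 and 2339 RPKM in Ctrl. Obp56a had 10.4 and 5.68 RPKM in Quad, against 94.5 and 89 RPKM in Ctrl (log2 fold change -3.41 ± 0.25 SE, adjusted p = 0.000313) and Obp44a, known from glia, 74.5 and 39.9 RPKM in Quad, against 2.15 and 4.22 RPKM in Ctrl (log2 fold change 3.78 ± 0.36 SE, adjusted p = 0.000687). Heat shock and chaperone genes fell in 10 and rose in 0 of 23 cases, with 1 rise without Ctrl 2. The heat shock factor gene Hsf had 91.1 and 88.6 RPKM in Quad, against 201 and 209 RPKM in Ctrl (log2 fold change -1.18 ± 0.09 SE, adjusted p = 0.000309), and Hsp60A, the mitochondrial chaperonin, 131 and 110.3 RPKM in Quad, against 301 and 324 RPKM in Ctrl (log2 fold change -1.37 ± 0.11 SE, adjusted p = 0.000459). Glycolysis genes fell in 3 of 13 cases, near the 22.6% of all genes, fbp, which acts in the reverse direction, with 39.9 and 32.1 RPKM in Quad, against 113 and 119.7 RPKM in Ctrl (log2 fold change -1.67 ± 0.13 SE, adjusted p = 0.000384). P450 genes that rose numbered 3 without Quad 1, 3 without Ctrl 1 and 4 without Ctrl 2, and that fell 8 without Ctrl 1 and 9 without Ctrl 2. Heat shock genes that fell numbered 16 with the replicate block and 5 without Ctrl 2, and glycolysis genes 7 without Quad 1. Cyp4g1 was not tested without Ctrl 1 and without Ctrl 2.

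Single transcripts of no assigned pathway were among the most changed in absolute level. CG9184 had 48 and 36.1 RPKM in Quad, against 2925 and 3199.7 RPKM in Ctrl (log2 fold change -6.17 ± 0.15 SE, adjusted p = 2.37e-05), CG31813 116 and 116 RPKM in Quad, against 1662 and 2075 RPKM in Ctrl (log2 fold change -3.99 ± 0.12 SE, adjusted p = 3.54e-05) and CG13159 167 and 135 RPKM in Quad, against 1381 and 1797 RPKM in Ctrl (log2 fold change -3.38 ± 0.16 SE, adjusted p = 8.61e-05). CG10591 had 24.4 and 16.9 RPKM in Quad, against 1189 and 1094 RPKM in Ctrl (log2 fold change -5.74 ± 0.17 SE, adjusted p = 3.54e-05) and CG14756 15.9 and 14.3 RPKM in Quad, against 767 and 875 RPKM in Ctrl (log2 fold change -5.67 ± 0.11 SE, adjusted p = 1.01e-05). All 5 were lower in both Quad libraries than in both Ctrl libraries, and 77.1% of all tested genes had no overlap. Among those that rose, CG5867 had 195 and 163 RPKM in Quad, against 1.12 and 0.809 RPKM in Ctrl (log2 fold change 6.52 ± 0.17 SE, adjusted p = 3.11e-05) and Mabi 137 and 150.2 RPKM in Quad, against 3.77 and 2.94 RPKM in Ctrl (log2 fold change 5.06 ± 0.15 SE, adjusted p = 3.54e-05). A few genes were listed at or under 0.1 RPKM in both libraries of 1 group and at 5 RPKM or more in both of the other. Of these, 4 were listed in Quad, namely CG14850, lcs, CG11300 and PGRP-SB2. For CG14850 the values were 100.1 and 52.5 RPKM in Quad, against 0.093 and 0.096 RPKM in Ctrl, and for lcs 53.3 and 26.0 RPKM in Quad, against 0.002 RPKM in both Ctrl libraries, which is the floor of the table. The other 5 were listed in Ctrl, namely CG17781, CG46316, CG46313, CG14105 and AOX2. CG17781 stood at 0.002 and 0.034 RPKM in Quad, against 14.1 and 12.4 RPKM in Ctrl, and CG46313 at 0.002 RPKM in both Quad libraries, against 11.0 and 9.12 RPKM in Ctrl.

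The second experiment, with the altered factors, gave a further effect to compare. QuadD against Ctrl-D gave 5618 genes that passed of 10207 tested (55%), with 2794 higher and 2824 lower. In a fit of all 8 libraries, the Quad effect and the QuadD effect differed for 291 of 10775 genes (2.7%), with 1759 at an unadjusted p under 0.05. The Quad effect was above the QuadD effect for 190 genes (1.76%) and below it for 101 (0.937%). Of the 190, 73 had risen in Quad, and 71 had fallen in both experiments, by less in Quad. Ctrl and Ctrl-D, which share a labelled genotype, differed for 133 genes (1.23%), with 2736 at an unadjusted p under 0.05. Each experiment had its own sequencing lane by the labels, so experiment and lane cannot be told apart. The 291 became 495 without Quad 1, 141 without Ctrl 1, 126 without Ctrl 2, 183 without QuadD 1, 145 without QuadD 2, 192 without Ctrl-D 1 and 188 without Ctrl-D 2. The 133 became 958 without Quad 1, 983 without Quad 2, 4 without Ctrl 2, 66 without QuadD 1, 64 without QuadD 2, 8 without Ctrl-D 1 and 5 without Ctrl-D 2.

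Genes with opposite or unlike effects include several of the nervous system. eg, at 29.98 and 28.4 RPKM in Quad, had 6.08 and 6.61 RPKM in QuadD, against 2.64 and 2.33 RPKM in Ctrl-D, and its effects differed by 2.00 ± 0.23 SE, adjusted p = 0.00291. For l(1)sc the values of the second experiment were 54.1 and 43.3 RPKM in QuadD, against 67.5 and 57.7 RPKM in Ctrl-D (difference 1.75 ± 0.24 SE, adjusted p = 0.00616), and for ey 7.81 and 8.54 RPKM in QuadD, against 8.69 and 7.22 RPKM in Ctrl-D (difference 1.45 ± 0.21 SE, adjusted p = 0.0077). Kr, a transgene in both experiments by the labels, had 64.8 and 67.4 RPKM in QuadD, against 69.2 and 57.5 RPKM in Ctrl-D there (difference 1.26 ± 0.20 SE, adjusted p = 0.0138). The effect of Quad was the higher one for these 4, and for l(1)sc and Kr both Ctrl-D libraries lay above both Ctrl libraries. nvy went the other way, with 169 and 212 RPKM in QuadD, against 26 and 23.4 RPKM in Ctrl-D (difference -1.92 ± 0.18 SE, adjusted p = 0.00119), as did dar1, a Kruppel-like factor gene of neurons with dendrites, which had 1.63 and 1.77 RPKM in Quad, against 15.3 and 15.8 RPKM in Ctrl and 9.14 and 7.73 RPKM in QuadD, against 12.6 and 13.3 RPKM in Ctrl-D (difference -2.05 ± 0.22 SE, adjusted p = 0.00188). Of other genes, Mabi had 2.38 and 3.87 RPKM in QuadD, against 5.43 and 8.60 RPKM in Ctrl-D (difference 6.02 ± 0.34 SE, adjusted p = 0.000107) and GstD7 0.280 and 0.132 RPKM in QuadD, against 0.675 and 1.27 RPKM in Ctrl-D (difference 6.65 ± 0.37 SE, adjusted p = 0.000107). Obp44a, up in Quad, had 5.87 and 3.29 RPKM in QuadD, against 1.48 and 1.77 RPKM in Ctrl-D (difference 2.72 ± 0.50 SE, adjusted p = 0.0252). For Osi6 the values were 2.58 and 3.13 RPKM in QuadD, against 553 and 789 RPKM in Ctrl-D (difference 2.48 ± 0.45 SE, adjusted p = 0.0245), and for Gs2 15.6 and 16.6 RPKM in QuadD, against 117 and 116 RPKM in Ctrl-D (difference 1.71 ± 0.15 SE, adjusted p = 0.000777).

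**Figure D5:**
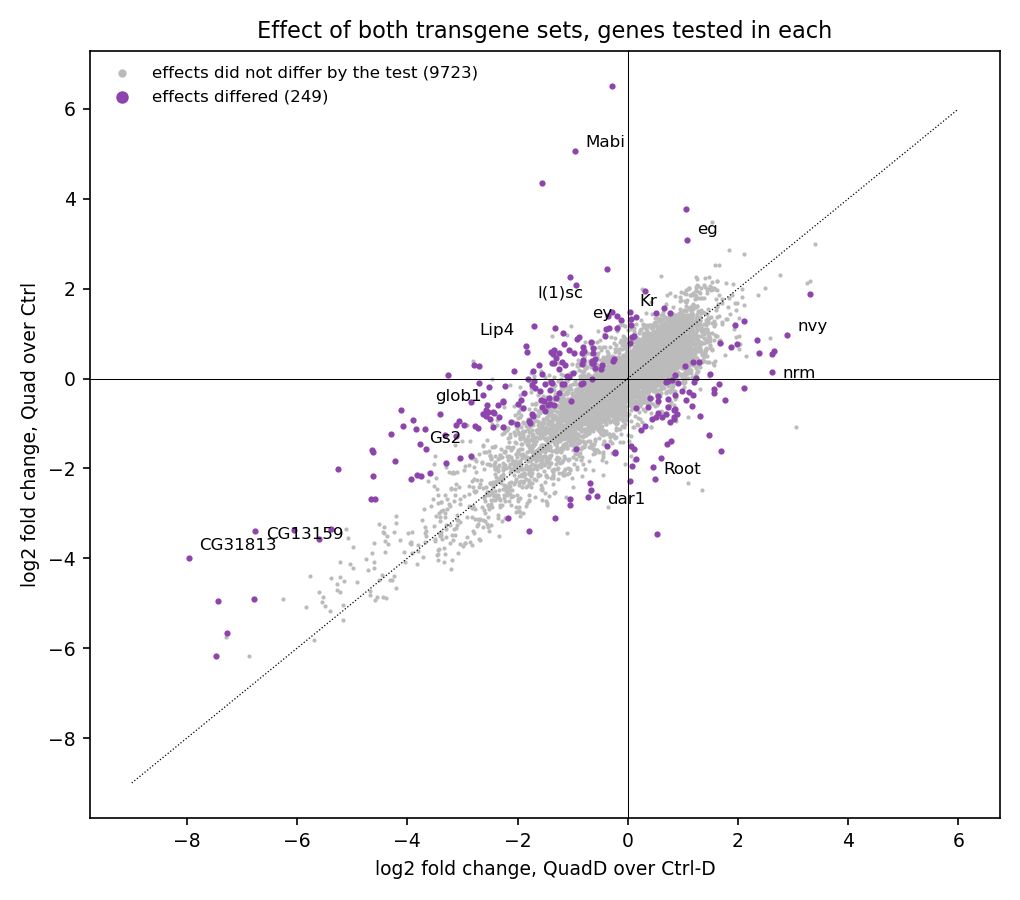
Effect of Quad over Ctrl (vertical axis) against that of QuadD over Ctrl-D (horizontal axis), both as log2 fold changes, for 9972 genes tested in each experiment. Purple points are the 249 genes whose effects differed by the test over all 8 libraries, grey points the 9723 others, and the dotted line marks equal effects. Mabi lies high above the line, and nvy, nrm, dar1 and Root lie below it.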

How the data were processed

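RNA of whole embryos was sequenced in 2 libraries each of Quad, Ctrl, QuadD and Ctrl-D. RPKM values were computed and deposited by the authors, per the file headers as linear total RPKM. The aligner, build, annotation and strand setting were not given in the sources used here. The authors also deposited raw counts, which could not serve as the main measure. Of 7660 genes that reached 10 RPKM in a library of Quad or Ctrl, 2791 had a raw count of 0 in all 4, and 414 genes had dashes. The design had planned a count test if the counts were complete. The counts were used only for 3545 genes where they were proportional to RPKM, within a ratio of 1.03 and with at least 20 counts, of which 3382 entered the fit.

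A gene entered a comparison when 2 or more of its libraries reached 1 RPKM, and was tested with limma 3.58.1 in R 4.3.3 on log2(RPKM + 1), with a trended prior and Benjamini-Hochberg adjustment over all genes tested. The method was tried on simulated data with an assumed depth and spread between replicates, which were not matched to these libraries. Quad and Ctrl were fitted alone, and differences from QuadD in a fit of all 8 libraries. RLE factors are medians of ratios to a mean library.

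Gene lists (60) and families (22) and the members were chosen with earlier results of these data known. Of 17321 symbols 17212 matched the reference table. Lists got no test and are given by counts and medians. Named genes were the transgenes with da, en and w, a set of defining regulators, the 15 largest rises and falls by fold among genes without overlap whose higher group averaged 10 RPKM or more, the 10 largest by RPKM difference, in each list up to 4 members with the smallest p and the most abundant one that did not pass, genes at the floor, the 5 most abundant CG genes per direction, the 5 smallest p of the difference from QuadD and the 5 widest gaps between Quad replicates. A further 58 of the 215 genes in the text were chosen after their values were seen. Alternatives were other pseudocounts, filters and scalings, all 8 libraries in the fit, the replicate block and each library left out.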

Additional observations from a re-analysis of the deposited data

Results flagged for a closer look

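For 28 of the genes named above, the effect of Quad over Ctrl differed from that of QuadD over Ctrl-D in limma's test over all 8 libraries (adjusted p under 0.05 over 10775 genes). Differences are the Quad effect minus the QuadD effect on the log2 scale. Those of eg (2.00), l(1)sc (1.75), ey (1.45), Kr (1.26), nvy (-1.92), dar1 (-2.05), Mabi (6.02), GstD7 (6.65), Obp44a (2.72), Osi6 (2.48) and Gs2 (1.71) stand in the report with their values.

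In the neuroectoderm and nervous system, D had 86.0 and 102 RPKM in QuadD, against 189.6 and 179.8 RPKM in Ctrl-D, a fall beside its rise in Quad (difference 1.54 ± 0.18 SE, adjusted p = 0.00258). The temporal factor pdm2 had 93.8 and 102 RPKM in QuadD, against 102 and 84.9 RPKM in Ctrl-D (difference 0.85 ± 0.17 SE, adjusted p = 0.0337). The columnar gene ind (1.32) and the genes toy (1.14), run (0.84) and hkb (1.43) also had higher effects in Quad, at adjusted p = 0.0386, 0.0102, 0.036 and 0.00788. The securin pim, of mitosis, had 80.8 and 86.4 RPKM in QuadD, against 56.7 and 48.8 RPKM in Ctrl-D (difference 0.90 ± 0.15 SE, adjusted p = 0.0182). For D, ind, hkb and pim both Ctrl-D libraries lay above both Ctrl libraries, so the gap between the controls enters their differences. D stood at 143 and 181 RPKM in Quad and at 106 and 111 RPKM in Ctrl.

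Among genes that were lower in Quad, CG13159 (3.37), CG31813 (3.98), CG14756 (1.60), CG9184 (1.31), CrebA (0.79), Pvr (1.16) and PGRP-LC (1.69) had still lower effects in QuadD. For CG31813 the levels were 8.23 and 2.40 RPKM in QuadD, against 1176 and 1676 RPKM in Ctrl-D. Pu (-1.60) and vvl (-0.62) had the lower effect in Quad. Pu stood at 6.41 and 6.16 RPKM in QuadD, against 20.5 and 28.8 RPKM in Ctrl-D. CG5867, which rose in Quad, had 0.815 and 0.564 RPKM in QuadD, against 1.04 and 1.09 RPKM in Ctrl-D (difference 6.81 ± 0.26 SE, adjusted p = 1.64e-05).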

How the results depend on the processing

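The count of genes that passed depended on the Ctrl libraries and on the filter. When 1 library was left out it ran between 2444 and 5325 (main 4956), with 1278 to 2693 genes higher and 1166 to 2632 lower, and genes at least 2-fold lower ran between 834 and 1444. Without a Ctrl library the lone control is assumed to vary like Quad. With no filter on low values 2696 genes passed, 1287 higher and 1409 lower, of which 405 and 796 changed at least 2-fold. A pseudocount of 5 RPKM gave 322 genes at least 2-fold higher and 724 lower, since it shrinks the change of low genes. RLE scaling gave 2106 genes higher and 2657 lower, and quantile normalization 3026 and 2273. The replicate block gave 2442 genes higher and 2287 lower. Deviations of libraries that share a replicate number correlated at -0.0434, so the numbers were not taken as pairs.

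Of the 215 named genes none changed direction while called in any of the 12 settings, and 29 lost their call with no filter. Of 162 counts of list members, 84 moved by over 1.5 times with no filter, 60 without Ctrl 1, 67 without Ctrl 2, 29 without Quad 1, 24 without Quad 2, 17 under quantile normalization, 16 under RLE scaling and 7 with the replicate block. On the 3382 tested genes whose raw counts follow RPKM, an alternative chosen after seeing the data, limma's voom called 1043 higher and 691 lower, against 956 and 621 by RPKM, and 1545 were called by both, in the same direction. The planned count tests were not run, because the count columns hold dashes and zeros for abundant genes, and promoter motifs were not analysed here.

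The number of genes whose Quad and QuadD effects differed ran between 126 and 495 over the libraries left out (main 291) and was 186 with no filter. That for Ctrl against Ctrl-D ran between 4 and 983 (main 133) and was 78 with no filter. These alternatives were also chosen after seeing the data. The depth behind an RPKM value is unknown, which limits what can be said of genes near 1 RPKM.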

Other observations

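The changes were spread over the chromosomes. On 2L 29.7% of 1919 tested genes were higher and 22.2% lower, on 3R 24.5% of 2545 were higher and 24.1% lower, and on the X 25.2% of 1672 were higher and 19.9% lower. The small chromosome 4 had 17% higher and 13.6% lower of 88 tested genes. Among RNA classes of the reference annotation, 61 of 323 tested antisense RNAs were lower and 38 higher, against 22.6% and 24.9% of all genes. It is not given whether counting used strand, so an antisense RNA cannot be told apart from its partner gene. Of 157 tested snoRNAs 11 were higher and 14 lower, against 24.9% and 22.6% of all genes.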
